A study of Rattus norvegicus with 42 samples.

Results

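Fast-muscle peaks were TSS peaks (positions on the genome where transcripts start) with far more CAGE tags in the EDL than in the soleus of control rats. CAGE (cap analysis of gene expression) sequences the capped 5′ ends of RNA, so a tag count at a peak measures how much RNA started there. A peak was taken as a fast-muscle peak when the mean of the 3 control EDL libraries plus 1 CPM was over 4 times the mean of the 3 control soleus libraries plus 1 CPM, where CPM is the tag count of a peak scaled to a total of 1000000 tags in all deposited peaks of the library. The 2 mitochondrial peaks and 97 peaks of a stretch on the plus strand of chromosome 10 were left out, which left 9872 of 9971 deposited peaks to choose from. The rule took 262 of these 9872 peaks, and the same ratio taken the other way gave 420 slow-muscle peaks.

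The series held 42 libraries from 21 mature Wistar rats, with a soleus and an EDL library from every animal. The soleus is a slow postural muscle of the hindlimb and the EDL (extensor digitorum longus) is a fast muscle. The 7 groups of 3 animals were controls (C), hindlimb unloading for 1, 3 or 7 days (D1, D3, D7), and 7 days of unloading followed by 1, 3 or 7 days of recovery under load (R1, R3, R7). Whole muscle was used, so fewer fibres or cells of a type and less RNA per cell cannot be told apart.

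Skeletal muscle fibres are classed by the myosin they use. Fast fibres carry fast isoforms of myosin, troponin and the calcium pump and rely more on glycolysis, while slow fibres carry the slow isoforms and rely more on oxidation. Loss of load moves the slow soleus toward a faster pattern of gene expression over weeks, and the fast EDL is known to respond less. The deposited table gives positions on Rnor_6.0 without gene names, and no annotation or genome of that build was used here, so each peak is named by its position and strand, and the text gives no gene or sequence for it.

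Libraries held 1778712 to 23103236 tags, of which 72.4% to 95.9% lay in deposited peaks. Sequencing lanes followed the phases in part: all controls were in lane 1, all 3 soleus D7 libraries in lane 3 and all 6 R1 libraries in lane 4, so the phase and the lane cannot be told apart in the contrasts named below. Outside control, in libraries that the rule did not use, the summed level of the fast-muscle peaks was 43383 to 83404 CPM in the 18 EDL libraries and 2912 to 22415 CPM in the 18 soleus libraries, so the muscles did not overlap and these 36 libraries matched their muscle labels on this measure. The soleus library of animal U26 at D1 stood apart from the other soleus libraries of its group in a way set out below. The summed level and the main soleus contrasts at D1 are given with and without it.

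The control libraries chose the peaks, so the control values are a description. In control EDL the mean level of a fast-muscle peak ran from 3.14 to 13495 CPM with a median of 18.7 CPM, and in control soleus from 0 to 1142 CPM with a median of 1.65 CPM. The ratio of the rule had a median of 7.06 and reached 1386. In control EDL 33 of the 262 peaks averaged at least 100 CPM and 56 averaged under 10 CPM. In control soleus 92 averaged under 1 CPM and 27 had no tag in any of the 3 libraries, where the limit that a count of 0 allows (3 tags over the group) is 0.0974 CPM. This limit covers counting error only. For 259 peaks every control EDL library was above every control soleus library, and for 34 peaks a single EDL control held more than the other 2 together. The rule used these same libraries and favours such a separation, and its share among all 9872 peaks was not counted. At the edge of the rule, the ratio was 4.01 at chr7:142905704-142905889 (plus strand), 4.01 at chr1:221757955-221758034 (plus) and 4.02 at chr10:37245012-37245547 (plus), while chr6:79150056-79150190 (minus, 3.99), chr17:32975564-32975797 (plus, 3.99) and chr8:116094675-116094958 (plus, 3.98) were just outside it.

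The summed level was carried by few peaks. The 12 peaks with the highest mean in EDL outside control held 82.8% to 88.0% of the sum in each EDL library and 57.2% to 92.1% in each soleus library. In EDL the sum was 72983 ± 15849 CPM in controls (SD, n = 3), and outside control it was 52871 ± 14314 CPM (D1), 60028 ± 9876 CPM (D3), 62130 ± 3226 CPM (D7), 66630 ± 14770 CPM (R1), 64751 ± 12516 CPM (R3) and 61964 ± 1701 CPM (R7). Since a high EDL control helped a peak to pass the rule, lower EDL values outside control are given with no test.

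In soleus the sum was 7598 ± 331 CPM in controls (SD, n = 3), with the libraries between 7302 and 7956 CPM. It was 7047 ± 3104 CPM at D3 and 6501 ± 1889 CPM at D7, and its mean was lowest at R1, at 3450 ± 466 CPM, where the highest library (3733 CPM) was below every control. The sum at R1 was 0.454 of the control mean, while the median over the 262 peaks of the ratio with 1 CPM added was 0.848. The added 1 CPM draws low peaks toward 1. The median level was 0.685 to 0.886 CPM in the R1 libraries, below the control range of 1.246 to 2.028 CPM. The sum was 7933 ± 1571 CPM at R3, with all 3 libraries (6136 to 9047 CPM) above all 3 R1 libraries. At R7 it was 13863 ± 7985 CPM, a mean that rested on animals U12 (22415 CPM) and U13 (12573 CPM) while U19 was at 6602 CPM. The sum at R7 was 1.82 of the control mean, but the median over the 262 peaks of the ratio with 1 CPM added was 0.998. The median level was 1.44 to 1.62 CPM in the R7 libraries, within the control range. The higher sum was thus that of a few peaks and not of the set. At D1 the sum was 5906 ± 3782 CPM, from 4002 and 3455 CPM in U24 and U25 and 10262 CPM in U26, and without U26 it was 3728 ± 386 CPM (n = 2).

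**Figure D1:**
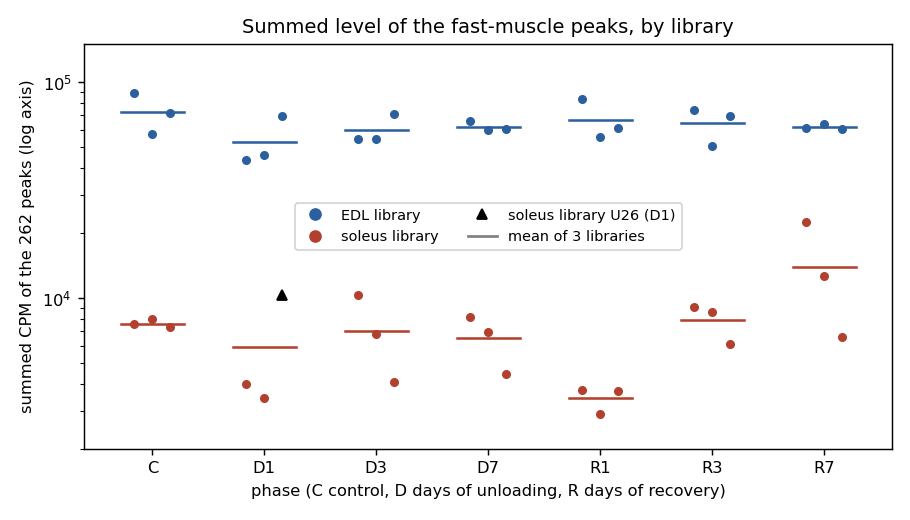
Summed level of the 262 fast-muscle peaks in each library (CPM, log axis) by muscle and phase; each point is a library, each bar is the mean of its group and the triangle is the U26 soleus. EDL libraries lie between 43383 and 89371 CPM and soleus libraries between 2912 and 22415 CPM, with the lowest soleus mean at R1 (libraries from 2912 to 3733 CPM) and U26 highest of the D1 soleus libraries.

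The soleus library of U26 was higher than both other D1 soleus libraries at 222 of the 262 fast-muscle peaks, whereas U24 was highest at 33 and U25 at 4. Among all deposited peaks U26 was above both others at 54.2%. Over the 174 peaks with at least 10 CPM in the EDL library of the same animal, the excess of the U26 soleus over the mean of U24 and U25 was 10.9% of the excess of its own EDL over that mean in the median, with quartiles of 7.27% and 16%. Of the 420 slow-muscle peaks, 131 were below both other D1 soleus libraries in U26, as were 17% of all deposited peaks. The summed level of the slow-muscle peaks was 60026 CPM in U26, against 71760 CPM in U24 and 66459 CPM in U25. The part of EDL material in this library was not tested.

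Among the 33 strongest peaks (at least 100 CPM in control EDL), 5 had a control ratio of at least 63.5 and the other 28 a ratio of at most 22.7, with none between. The 5 peaks near absent from control soleus were chr7:119443532-119443719 (minus, 1386), chr1:220136327-220136534 (minus, 602), chr1:100530107-100530305 (minus, 214), chr7:119428695-119429248 (minus, 101) and chr7:119441459-119441695 (minus, 63.5). The chr7 peaks among the 5 lay on the same strand within 15025 nt, so they may be starts within the same transcribed region. Outside control the 5 kept ratios of 37.6 to 164, or 42.5 to 353 without the U26 soleus, against 2.56 to 15 for the other 28. These ratios pool 6 phases in libraries that the rule did not use. By phase the tiers were apart at D3, R3 and R7 and overlapped at D1, D7 and R1, with U26 included at D1. The D1 overlap rested on chr1:220136327-220136534, with a D1 ratio of 17.1, against 18.4 at chr1:215610922-215611283 among the 28. Soleus at the former held 162 CPM in U26 and at most 13.7 CPM in U24 and U25. Whether the tiers overlapped at D1 without U26 was not tested. At R1 the 5 had ratios of 41.2 to 1423 and chr9:73958278-73959013, among the 28, had 167.

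The summed soleus level of each tier was set against the same tier in the EDL of the same animal. For the 5 near-absent peaks, soleus held 0.0597% to 0.178% of the own EDL level in controls, 0.0469% to 0.108% at R1 and 4.98% in U26 at D1. The next highest values were 1.83% (U5, R3), 1.75% (U4, R3) and 1.63% (U10, D3). For the 28 graded peaks, soleus held 9.70% to 15.7% in controls, 3.76% to 5.93% at R1, 43.8% in U12 at R7, 24.0% in U13 at R7 and 20.1% in U10 at D3. Animals outside R1 that were also below every control were U9 at D3 (5.79%), U3 at D7 (7.33%), U25 and U24 at D1 (8.63% and 9.61%) and U5 at R3 (9.53%). U26 was at 15.7% on this scale. U26 was highest of all 21 animals on the near-absent peaks and U12 on the graded ones, and U12 held 0.464% on the near-absent peaks. The order differed where each peak counted alike. The median level over the 262 peaks in soleus, as a percent of that in the own EDL, was highest in U26 (20%). The next highest were U10 (19%, D3), U11 (17.4%, D3) and U1 (17%, D7). U12 (9.41%) lay within the control animals (7.10% to 11.5%), while its summed graded level (21499 CPM) held 10568 CPM from chr1:198655606-198655966.

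**Figure D2:**
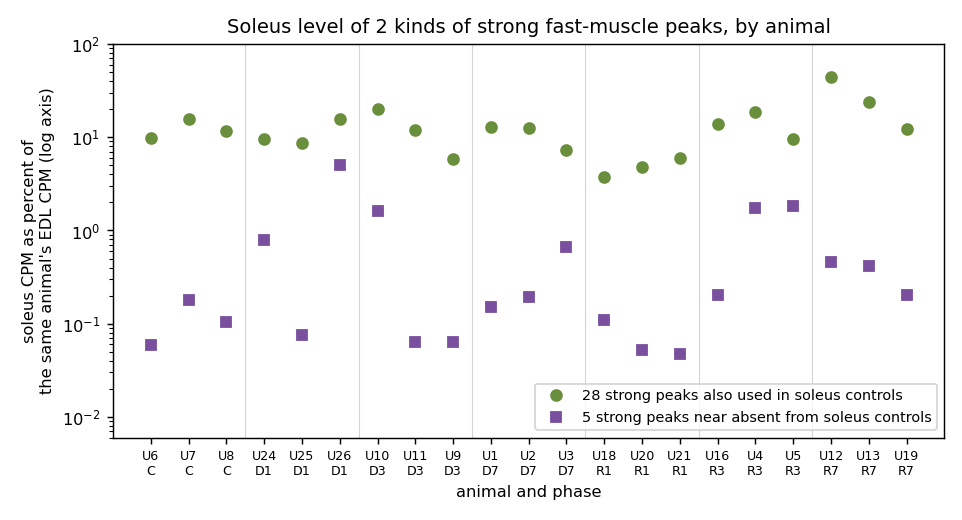
Soleus level as a percent of the EDL level of the same animal (log axis) for each of the 21 animals, for the sum of the 28 graded peaks (circles) and the sum of the 5 peaks near absent from control soleus (squares). U26 (D1) has the highest value on the near-absent peaks (4.98%) and U12 (R7) the highest on the graded peaks (43.8%). On the graded peaks the R1 animals are between 3.76% and 5.93%, below every control animal, as are U24 and U25 (D1), U9 (D3), U3 (D7) and U5 (R3). These are sums that a few peaks carry. By the median level over the 262 peaks U26 was highest (20%) and U12 (9.41%) was within the controls. The next highest by that median were U10 (19%) and U11 (17.4%) at D3 and U1 (17%) at D7.

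The comparison of the 2 muscles in each of the 6 other phases asked whether the difference that chose the peaks was also present in other animals. No control library entered these contrasts. Calls needed an adjusted p under 0.05 and a change of over 2.38-fold either way, in edgeR's quasi-likelihood test with Benjamini-Hochberg adjustment over all 9947 peaks tested in a fit of all 42 libraries. At D1, EDL was higher at 231 of the 262 peaks, and 7.14% of all tested peaks were called higher in EDL. The other counts, each with its share of all tested peaks, were 225 (6.52%) for D3, 228 (5.6%) for D7, 245 (14%) for R1, 242 (6.38%) for R3 and 233 (7.49%) for R7. The median log2 fold change of the 262 peaks was 3.66, 3.28, 3.91, 4.99, 3.74 and 3.56 in the same order, and that of all tested peaks lay between -0.10 and 0.00.

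No fast-muscle peak was called lower in EDL at any phase except R1, where 3 were (18.4% of all tested peaks were called lower in EDL there). Of the 262 peaks, 198 were called higher in EDL in all 6 phases and 29 in 5, while 12 were called in none. Of all tested peaks, 3.43% were called higher in EDL in all 6 phases, 0.895% in 5 and 81.4% in none. In a count by animal, with no threshold, EDL was above soleus in all 18 animals outside control at 215 of the 262 peaks, while 4.45% of all deposited peaks met this. It was above in 17 at 16 peaks, in 16 at 7 and in fewer at 24. Without U26 the count over all 17 animals was also 215. At D1, leaving out the U26 soleus gave 226 peaks higher in EDL and raised the median log2 fold change from 3.66 to 4.45.

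With library sizes set to the column sums in place of TMM scaling, the median of all tested peaks moved to between -0.17 and -0.52, and 209 to 241 fast-muscle peaks were called higher in EDL. Among all called peaks the share higher in EDL was then 23.8% at R1 in place of 43.2%, 45.4% in place of 57.5% at D1, 44.3% in place of 57.0% at D3, 44.3% in place of 55.5% at D7 and 38.4% in place of 54.2% at R3.

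**Figure D3:**
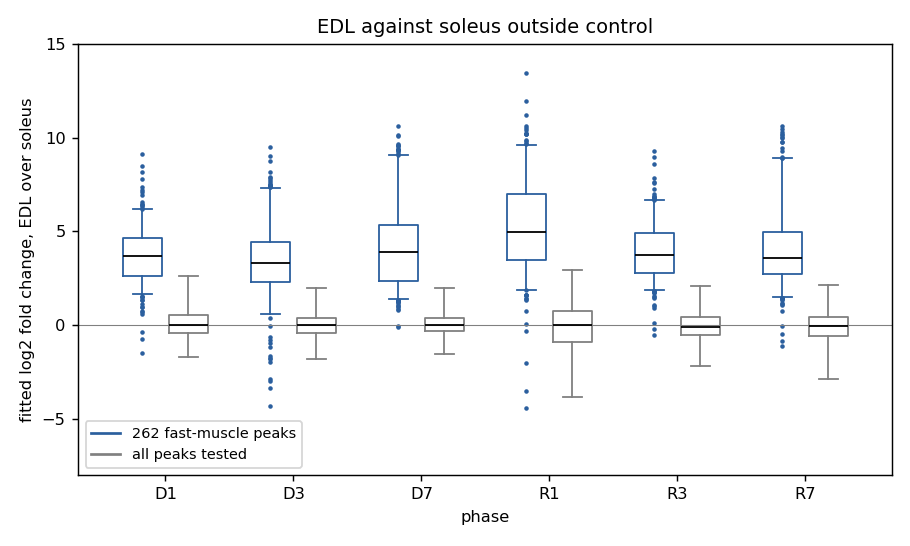
Log2 fold change of EDL over soleus within each phase outside control, for the 262 fast-muscle peaks and for all tested peaks (edgeR, TMM); boxes give the quartiles, lines the median and whiskers the 5th and 95th percentiles, and points are fast-muscle peaks beyond them. Medians of the fast-muscle peaks run from 3.28 (D3) to 4.99 (R1), and those of all tested peaks lie within 0.10 of 0.

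Over the 18 animals outside control, the mean log2 ratio of EDL over soleus CPM plus 1 was 2.55 in the median of the fast-muscle peaks and -0.39 in the median of all peaks. It was highest at chr7:119443532-119443719 (9.06), chr1:220136327-220136534 (7.36) and chr1:100530107-100530305 (6.84), all in the near-absent tier. It was lowest at chr8:87158023-87158424 (minus, -0.18, EDL higher in 9 of 18 animals), chr16:20807054-20807157 (minus, 0.20, 8 of 18) and chr1:215536568-215537191 (minus, 0.37, 12 of 18).

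Among the 12 peaks that were called in no phase, 3 formed a run at chr13:50874518-50884647 (plus). The summed level of the 12 was highest in the EDL of U26 (1107 CPM) and U19 (1047 CPM), in the soleus of U11 (465 CPM) and in the EDL of U18 (462 CPM), U3 (383 CPM) and U7 (374 CPM). U7 was 1 of the 3 control animals, and its EDL was the highest EDL control at all 12 peaks and above the other 2 together at 11. The high libraries were thus from both muscles and from 6 phases.

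The highest peak by mean EDL level outside control, the order used below, was chr1:198655606-198655966 (plus strand), and it stood between 10364 and 16285 CPM in every EDL library. In soleus it was 808, 949 and 1669 CPM in controls, and 232, 406 and 1542 CPM at D1, where the last value is from U26. It was 931, 1013 and 346 CPM at D3 and 770, 384 and 219 CPM at D7. At R1 its mean was lowest, from 135, 42 and 351 CPM, and at R3 it was 2724, 3427 and 933 CPM, above all R1 values (log2 fold change of R3 over R1 3.87, adjusted p = 0.0037, edgeR). At R7 it was 10568 CPM in U12, 6247 CPM in U13 and 1358 CPM in U19, against 10374 to 12476 CPM in EDL at R7. The soleus of U12 thus lay within the EDL range, and the EDL over soleus difference at R7 was not called (log2 fold change 1.18, adjusted p = 0.17, edgeR, and 1.65 and 0.109 without U12). Each of the 12 highest peaks was higher in the EDL than in the soleus of the same animal in all 18 animals outside control.

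The second highest, chr3:161246218-161246427 (minus), was at 5353 to 13050 CPM in EDL. Its soleus level was 1219, 1278 and 895 CPM in controls and ranged from 67.3 CPM at R1 (U20) to 2927 CPM at R7 (U12). At D7 and R1 the soleus libraries overlapped, with 1138, 493 and 312 CPM against 339, 67.3 and 546 CPM. The third, chr8:72841303-72841671 (minus), held 353, 233 and 122 CPM in soleus at D7 and 92.4, 40.8 and 88.4 CPM at R1, with no overlap, but the difference did not pass the test (log2 fold change -1.75, adjusted p = 0.0785, edgeR). At R7 its soleus level was 2198 CPM in U12, 914 CPM in U13 and 327 CPM in U19, the same order of animals as at the highest peak.

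The fourth, chr9:73958278-73959013 (minus), was at 2062 to 5266 CPM in EDL. Its soleus level was 329, 589 and 403 CPM in controls and 46.2, 145 and 569 CPM (U26) at D1. At D7 it was 112, 102 and 96.0 CPM and at R1 12, 8.56 and 54.5 CPM, with no overlap (log2 fold change -2.16, SE 0.82, adjusted p = 0.0431, edgeR). This call was lost in 6 of 10 other settings. At R3 it was 789, 338 and 243 CPM, a rise over R1 of 4.35 on the log2 scale (SE 0.89, adjusted p = 0.00202, edgeR), and at R7 1954, 1085 and 407 CPM. EDL held 3436 to 5042 CPM at R1 and 4063 to 4838 CPM at D7, which overlap.

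Soleus levels at other strong peaks followed other courses. At chr1:197874716-197875279 (minus), soleus held 365 to 640 CPM in controls, 301, 245 and 1028 CPM (U26) at D1, 206 to 410 CPM at R1 and 229 to 314 CPM at R7. At chr1:221756131-221756568 (plus), soleus held 1050 to 1179 CPM in controls, 1160 to 1904 CPM at D7 and 661 to 697 CPM at R1, and 389 to 611 CPM at R7. These values put R7 lowest in soleus at the second of these peaks, where the highest peak of the set had its highest soleus values. The R1 level of that peak was below D7 (log2 fold change -1.32, adjusted p = 0.0031, edgeR). At chr14:86046453-86047319 (minus), soleus held 602 to 643 CPM in controls, 666 to 923 CPM at D7 and 193 to 489 CPM at R1 (log2 fold change -1.29, adjusted p = 0.0013, edgeR).

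The near-absent peak chr7:119443532-119443719 (minus) held 4252 to 6614 CPM in control EDL. In soleus it was 3.16, 3.10 and 2.63 CPM in controls, 16.6 and 1.18 CPM in U24 and U25 at D1, and 221 CPM in U26. It was 35.1, 0 and 0.176 CPM at D3, 4.34, 3.84 and 11.4 CPM at D7, 2.07, 0.514 and 0.827 CPM at R1, 0.561, 24.1 and 40.6 CPM at R3, and 0.878, 8.84 and 5.56 CPM at R7. The log2 fold change of EDL over soleus at D1 was 6.46, and 9.53 without U26. In EDL it was 3433 to 6043 CPM at D1 and 1689 to 3272 CPM at D7, a difference that did not pass the test (log2 fold change -1.17, adjusted p = 0.28, edgeR).

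**Figure D4:**
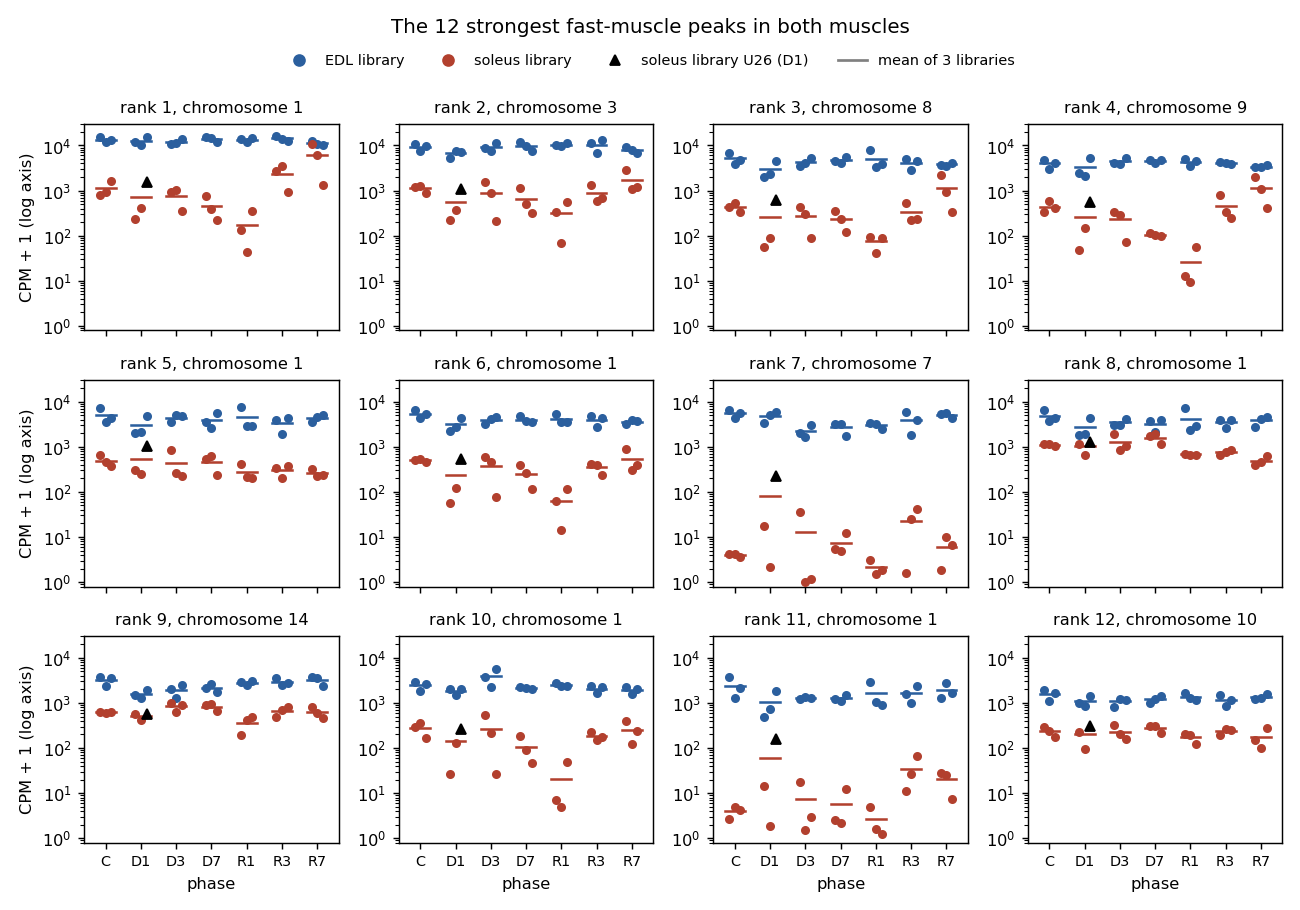
Level of the 12 highest fast-muscle peaks in every library (CPM plus 1, log axis), with a panel for each peak in order of its EDL level and phases on the horizontal axis; points are libraries, bars are means of 3 and the triangle is the U26 soleus. EDL points of the highest peak stay between 10364 and 16285 CPM while its soleus points run from 42 CPM at R1 to 10568 CPM at R7.

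Changes between successive phases of a muscle were tested with contrasts that hold no control library. The fit was of the 21 libraries of that muscle, so its controls entered the filter, the scaling and the estimate of spread. In soleus 195 of the 262 peaks passed the filter on low counts, and since that filter keeps peaks that are high in some group, counts below are over those 195. From D7 to R1, 46 fast-muscle peaks fell and 5 rose, while among all tested soleus peaks 7.66% fell and 15.6% rose. The median log2 fold change of the 195 was -1.21 and 158 were negative. With no filter, all 262 were tested and 47 fell and 5 rose, while of all 9971 tested peaks 754 fell and 1530 rose. The count of 51 calls dropped to 24 without the soleus D7 library of U1 and to 27 without the soleus R1 library of U20. In the first case 19 of 201 fast-muscle peaks fell and 5 rose, while of all 9868 tested peaks 618 fell and 1467 rose. In the second, 22 of 201 fell and 5 rose, while of all 9869 tested peaks 611 fell and 1446 rose.

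No soleus lane held libraries from both before and after the start of recovery, so a model with the lane as a term has no estimate for D7 to R1. The EDL R1 libraries were the only EDL libraries of their lane, so the EDL changes from D7 to R1 and from R1 to R3 have none either. The phase and the lane cannot be told apart in this contrast. From R1 to R3, 40 peaks rose and 6 fell (2.76% of all tested peaks rose and 9.87% fell), with a median of 0.84. The count of 46 calls was 26 without the R1 library of U18. Of 201 fast-muscle peaks 22 then rose and 4 fell, while of all 9869 tested peaks 122 rose and 643 fell. With the lane as a term 19 rose and 2 fell, while of all 9842 tested peaks 247 rose and 521 fell.

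The falls at R1 were spread over 28 runs or single peaks. A run here is a group of fast-muscle peaks on a strand with gaps of at most 20000 nt. All 5 peaks of the run at chr1:221756131-221756568 and 5 of the 6 of the run at chr1:215608858-215609213 (plus) fell. At the latter, soleus was at 183, 91.2 and 45.2 CPM at D7 and 6.20, 4.02 and 47.1 CPM at R1. Among called peaks with groups that did not overlap, the largest falls were at chr1:198228379-198228617 (plus, log2 fold change -2.53, SE 0.74, adjusted p = 0.012, edgeR), at chr9:73958278-73959013, given above, and at chr1:215666418-215666737 (plus, -2.10, SE 0.81, adjusted p = 0.0461, edgeR). The call at the last of these was lost in 5 of 10 other settings. The first of these stood at 18.6, 8.43 and 17.2 CPM at D7 and 4.05, 2.40 and 1.83 CPM at R1 in soleus. The third stood at 393, 255 and 115 CPM at D7 and 60.5, 13.1 and 113 CPM at R1.

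A small group of peaks went the other way and rose in soleus at R1. At chr6:6328318-6328656 (minus) the 3 soleus D7 libraries had no tag, the R1 libraries held 91.9, 24.7 and 28.8 CPM, and the R3 libraries 0.140, 0.140 and 0 CPM. R1 was at least 285-fold higher than D7, taking 3 tags over the D7 group as the floor (adjusted p = 9.23e-06, edgeR). R3 rested on 2 tags, which put the ratio of R1 over R3 at 703 with a 95% interval for counting error of 194 to 5808. EDL held 4.88 to 6.28 CPM at this peak in controls and 0.398 to 2.85 CPM at R1, so that at R1 the soleus was higher (log2 fold change of EDL over soleus -4.42).

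At chr1:102396470-102397331 (plus), soleus held 1.58, 3.09 and 5.82 CPM at D7, 558, 113 and 101 CPM at R1 and 3.65 to 4.84 CPM at R3. The rise was 6.19 on the log2 scale (SE 0.74, adjusted p = 1.42e-05, edgeR), and the change to R3 was -5.80. EDL held 10.3 to 20.7 CPM at R1, below every soleus R1 library (log2 fold change -3.54). At chr1:215536568-215537191 (minus), soleus went from 0.213 to 0.790 CPM at D7 to 18.5, 13.5 and 16.1 CPM at R1 (log2 fold change 4.94, SE 0.88, adjusted p = 0.000444, edgeR), and EDL was lower than soleus at R1 (-2.06, adjusted p = 0.0129, edgeR). These 3 were the peaks called lower in EDL at R1.

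**Figure D5:**
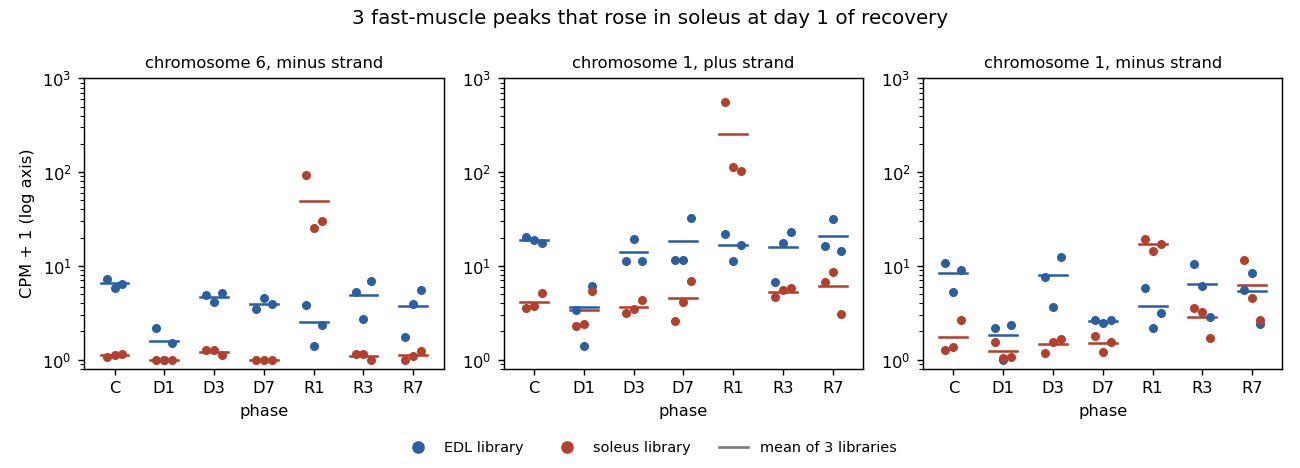
Level of 3 fast-muscle peaks that rose in soleus at R1 (CPM plus 1, log axis) by phase; points are libraries and bars are means of 3. From left to right the peaks are chr6:6328318-6328656, chr1:102396470-102397331 and chr1:215536568-215537191, and in each the 3 soleus libraries at R1 lie above the 3 EDL libraries at R1.

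Of the 5 rises, the other 2 were chosen for mention after their values were seen. The neighbour chr1:215537838-215538077 (minus) held 42.7, 36.2 and 35.7 CPM at R1 (log2 fold change over D7 3.97, SE 0.46, adjusted p = 1.2e-05, edgeR), and chr5:159428425-159428634 (plus) rose by 2.10 (SE 0.48, adjusted p = 0.00256, edgeR). All 5 had a higher level in control EDL than in control soleus by the rule. Falls from R1 to R3 were called at 6 peaks, among them the first 4 of these rises and also chr1:102059604-102059745 (plus, log2 fold change -1.71) and chr2:196300916-196301224 (minus, -1.61), the last 2 named after their values were seen.

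The largest rises in soleus from R1 to R3 among peaks with separate groups were at chr1:100530107-100530305, chr1:220136327-220136534 and chr9:73958278-73959013. At the first, a near-absent peak, R1 held 1 tag in the 3 libraries together and R3 held 4.21, 6.44 and 19.6 CPM, a ratio of 528 with a 95% counting interval of 94.2 to 20897 (adjusted p = 0.00583, edgeR). At the second, soleus held 4.05, 0.599 and 0.236 CPM at R1 and 10.4, 26.3 and 64.0 CPM at R3 (log2 fold change 4.50, SE 1.5, adjusted p = 0.0402, edgeR), a call lost in 5 of 11 other settings. The EDL of the same R3 animals held 1610, 985 and 2429 CPM at this peak.

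Within EDL few changes passed. From D7 to R1 and from R1 to R3 no fast-muscle peak was called by edgeR (0.0214% and 0.0107% of all tested peaks were), with 21 and 23 at an unadjusted p under 0.05. DESeq2 called 2 and 0. Of all 9345 tested peaks it called 7 higher and 38 lower from D7 to R1, and 17 higher and 5 lower from R1 to R3. From D1 to D7, 1 peak fell (0.428% of all tested peaks were called), chr16:6042390-6042798 (plus), from 5.31, 11.9 and 13.7 CPM to 2.19, 2.92 and 1.88 CPM (log2 fold change -2.62, SE 0.53, adjusted p = 0.0449, edgeR). From R3 to R7, 1 peak fell (0.0214% of all tested peaks were called), chr13:108590444-108590656 (minus), from 32.8, 52.8 and 87.6 CPM to 4.13, 2.52 and 3.46 CPM (log2 fold change -4.24, SE 0.71, adjusted p = 0.0475, edgeR). Both calls sat near the threshold, and the first was lost in 8 and the second in 7 of 11 other settings.

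In soleus from R3 to R7 no fast-muscle peak was called by edgeR, which called 0% of all tested peaks, with 20 fast-muscle peaks at an unadjusted p under 0.05. DESeq2 called none of the fast-muscle peaks either. From D1 to D7, 2 peaks fell and none rose (1.04% of all tested peaks were called). These were chr1:88620210-88620292 (plus, log2 fold change -4.74, adjusted p = 0.00603, edgeR) and chr1:91073865-91073938 (minus, -4.71, adjusted p = 0.00889, edgeR). Without U26 both were still called, at -4.43 (adjusted p = 0.0225, edgeR) and -4.24 (adjusted p = 0.0316, edgeR), while with the lane as a term, and with a filter of at least 5 CPM in 3 libraries, 0 fast-muscle peaks were called by edgeR (27 and 12 at an unadjusted p under 0.05). That filter removed both peaks before the test, since each reached 5 CPM in fewer than 3 soleus libraries. DESeq2 called 8 fast-muscle peaks, and of all 9842 tested peaks it called 145 higher and 141 lower. The levels of the 2 peaks named above were alike in library after library. At D1 they were 5.11 and 4.93 CPM in U24, 4.31 and 3.65 CPM in U25 and 9.37 and 10.6 CPM in U26. The study's methods state that reads could at first map to up to 20 loci, and whether these 2 peaks share reads was not tested. The median log2 fold change of all 195 peaks from D1 to D7 was -0.34, and 0.39 without U26. With library sizes as column sums, 91.4% of all calls in this contrast were rises, in place of 56.9%.

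Whether EDL and soleus changed differently from D7 to R1 was tested as an interaction in the fit of all 42 libraries. The change was more positive in EDL at 35 fast-muscle peaks and more positive in soleus at 4, while 5.49% and 9.85% of all tested peaks were called in these directions. All 262 were tested here, since a high EDL level alone let a peak pass the filter, while 195 passed it in soleus. The 35 include peaks that failed the soleus filter, and counts over the 195 alone were not made. The median difference was 1.34 on the log2 scale, against 0.09 for all tested peaks. The count of 39 fell to 17 without the EDL D7 library of U3 or the EDL R1 library of U20. In each case 13 were in the EDL direction. Of all tested peaks, 344 of 9958 were in that direction without the former and 360 of 9962 without the latter. The count was 20 without the soleus D7 library of U1 and 21 without the EDL D7 library of U1. It was 22 without the soleus R1 library of U20 and 25 without that of U18. In these fits 435, 385, 429 and 343 of all tested peaks, in the same order, were in the EDL direction. Each of these counts holds 4 fast-muscle peaks in the soleus direction. With library sizes as column sums, 23.1% of all calls were in the EDL direction, in place of 35.8%.

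The 35 peaks lay in 22 runs or single peaks. With the lane as a term, 24 fast-muscle peaks were called more positive in EDL and 4 in soleus, with a median difference of 1.28. Of all 9947 tested peaks, 407 and 725 were then called in these directions. Among the 35 peaks, the largest differences by the naming rule given below were at chr10:53839008-53839077 (plus, 4.2, SE 1.42, adjusted p = 0.037, edgeR), chr10:53837874-53838008 (plus, 4.17, SE 1.42, adjusted p = 0.0378, edgeR) and chr1:197872917-197873064 (minus, 3.90, SE 1.11, adjusted p = 0.0138, edgeR). At each of them the D7 and R1 libraries did not overlap in soleus but did in EDL. These sizes rest on 3, 2 and 2 tags in the 3 soleus R1 libraries, and the calls were lost in 8, 10 and 1 of 18 other settings. The first held 3.16, 0.960 and 0.265 CPM in soleus at D7 and 17.1 to 26.7 CPM in EDL at R1. Of the strongest peaks, chr1:221756131-221756568 had a difference of 1.76 (adjusted p = 0.0044, edgeR) and chr14:86046453-86047319 one of 1.74 (adjusted p = 0.0054, edgeR). The largest in the soleus direction were chr6:6328318-6328656 (-12.32, adjusted p = 3.39e-07, edgeR), whose size depends on the D7 count of 0, chr1:102396470-102397331 (-6.11, adjusted p = 6.34e-06, edgeR) and chr1:215536568-215537191 (-4.06, adjusted p = 0.0104, edgeR). The fourth was chr1:215537838-215538077 (-2.77, adjusted p = 0.00149, edgeR).

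The fast-muscle peaks were clustered on the genome. They formed 136 runs or single peaks: 39 runs with 165 peaks and 97 single peaks. Chromosome 1 held 93 peaks, or 35.5% of the set against 12.4% of the peaks the rule could choose from, and 69 of the 93 lay in runs of 5 or more. Peaks of a run are not independent, since they may be starts within the same transcribed region. The 198 peaks higher in EDL in all 6 phases came from 86 runs or single peaks.

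The largest run held 20 peaks at chr1:197855948-197875279 (minus), led by chr1:197874716-197875279 at 4965 CPM in control EDL, while the next highest of the run had 103 CPM. All 20 were called higher in EDL in all 6 phases. A run of 10 at chr1:100510377-100530305 (minus) was led by a near-absent peak at 591 CPM. A run of 10 at chr10:53778144-53797649 (minus), on the opposite strand of the stretch that was left out, had no leading peak, with 16.7 CPM at its highest and 13.5 CPM at the next. Runs of 8 lay at chr8:72820322-72841671 (minus) and chr1:220120948-220136534 (minus).

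In 12 of the 14 runs of 5 or more peaks, the strongest peak was the first in the direction of transcription, and in 15 of the 25 runs of 2 to 4. The strongest peak held 88.4% of the control EDL level of the run in the run of 20, 98.7% in the run of 6 at chr1:198655606-198655966 and 97.4% in the run of 5 at chr3:161246218-161246427. It held less in other runs, with 60.5% in the run of 7 led by chr1:198233120-198233473 (minus), 34.9% in the run of 6 led by chr10:53837874-53838008 and 17.9% in the run of 10 led by chr10:53795596-53795679 (minus). The middle 80% of tags in EDL spanned a median of 39 nt at the strongest peaks of runs (n = 39), 74 nt at the other peaks of runs (n = 126) and 60 nt at single peaks (n = 97). Over all 262 fast-muscle peaks it spanned a median of 66 nt, against 49 nt at the other peaks. The deposited peaks themselves were of like width, with a median of 195 nt against 208 nt for all peaks the rule could choose from.

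Most fast-muscle peaks used the same start in both muscles. Of 213 peaks with at least 50 tags in each muscle, 175 (82.2%) had the same dominant position, against 84.5% of 9296 other peaks, and 24 (11.3%) had positions over 20 nt apart, against 7.49%. At chr10:53643714-53643843 (plus), where the positions were 54 nt apart, the share of tags within 10 nt of the EDL position was 9.09% to 20.8% in the 6 soleus libraries with enough tags and 33.3% to 60.6% in 16 EDL libraries. At chr2:224823918-224824176 (minus, 103 nt apart) it was 0% to 17.4% in 8 soleus libraries and 20.8% to 45.0% in 14 EDL libraries. At chr15:4082252-4082471 (plus, 64 nt apart) it was 6.78% to 26.8% in 11 soleus and 25% to 49% in 18 EDL libraries, and at chr2:219842560-219843255 (minus, 222 nt apart) 3.45% to 17.5% and 10% to 19.7% in 18 libraries each. The first 2 did not overlap between the muscles and the last 2 did. The other way, at chr10:53636239-53636442 (plus, 55 nt apart), the median share was 4.76% in 11 EDL libraries (0% to 53.5%). It was 10.5% in 6 soleus libraries (5.22% to 22.4%) there. All these peaks were chosen after their values were seen.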

How the data were processed

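CAGE libraries were prepared from total RNA of whole soleus and EDL muscles of 21 rats and sequenced single-end. According to the study's methods, reads were trimmed with Trimmomatic, mapped with STAR to Rnor_6.0 with up to 20 loci allowed per read at first, and aggregated to start positions with PromoterPipeline, and the submitters' processing notes name Trimmomatic 0.38, BWA and HISAT2. The authors deposited raw tag counts per peak and library, which were used as deposited. The 42 columns of normalized values in the same table were not used. Summing the deposited counts per position over each peak gave the same number for all 418782 peak and library pairs (0 differed). Depth was 1778712 to 23103236 tags per library, so counts of a few tags carry wide intervals, and those given cover counting error only.

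Groups were taken from the labels. The 42 libraries were fitted as 14 groups for muscle contrasts and the interaction, and the 21 libraries of a muscle as 7 groups for phase contrasts, with edgeR 4.0.16 (filterByExpr, TMM, quasi-likelihood test, Benjamini-Hochberg adjustment) in R 4.3.3. DESeq2 1.42.0, other filters and scalings, lane and animal blocks and leaving out libraries were alternatives. Descriptions used Python 3.11.15. On simulated counts with 200 changed peaks at a log2 size of 2.5, 200 were recovered for soleus R1 against D7 and 169 for the interaction. The changed peaks were drawn only from those above a set tag count, and the spread was a fixed value. Recovery at peaks with few tags, as many fast-muscle peaks are in soleus, was not tested. Soleus and EDL of 1 animal share its number, so the animal pairs them. The correlation of their deviations from the group means had a median of 0.253 (-0.385 to 0.551) and was over 0.1 in 15 of 21 animals. Nothing paired animals across phases.

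The members and lists were chosen with earlier results of these data known. Peaks were named by rule: the 12 highest in EDL outside control, up to 3 largest rises and falls per contrast among called peaks with at least 10 CPM in a group and groups that did not overlap, the 3 highest and lowest mean ratios over animals, and the 3 peaks on each side of the ratio of 4. Other named peaks are marked where they appear.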

Additional observations from a re-analysis of the deposited data

Results flagged for a closer look

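From D7 to R1 the change differed between EDL and soleus at 39 fast-muscle peaks by the interaction test in edgeR, 35 of them with the more positive change in EDL. The 3 largest such differences by the naming rule were 4.2 at chr10:53839008-53839077, 4.17 at chr10:53837874-53838008 and 3.90 at chr1:197872917-197873064 on the log2 scale. At these 3 the D7 and R1 libraries overlapped in EDL and not in soleus. The 3 largest in the soleus direction were -12.32 at chr6:6328318-6328656, -6.11 at chr1:102396470-102397331 and -4.06 at chr1:215536568-215537191. The first 3 calls were lost in 8, 10 and 1 of 18 other settings and the last 3 in none of them. With the lane as a term, 28 peaks were called, 24 with the more positive change in EDL, and the median difference over the 262 peaks was 1.28 in place of 1.34. Of these 262, 195 passed the soleus filter.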

How the results depend on the processing

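Muscle contrasts outside control kept their counts of called fast-muscle peaks within 1.5 times under every alternative run. With an animal block, the fast-muscle peaks higher in EDL were 232 (D1), 230 (D3), 224 (D7), 245 (R1), 243 (R3) and 232 (R7). Of all 9947 tested peaks, 680, 674, 554, 1401, 649 and 745 were, in the same order. At R1, 3 fast-muscle peaks were lower in EDL, as were 1907 of all tested peaks. The interaction gave 34 in the EDL direction and 4 in the soleus direction, against 562 and 997 of all tested peaks. No count of called fast-muscle peaks moved by over 1.5 times with this block. With the lane as a term, calls in soleus were 0 for D7 against D1 and 21 for R3 against R1, and in EDL 0 for D7 against D1 and 0 for R7 against R3. R1 against D7 in either muscle and R3 against R1 in EDL had no estimate with the lane, since the lanes did not link these phases. DESeq2 called 8 peaks for D7 against D1 in soleus, and in EDL 9 for D7 against D1, 2 for R1 against D7 and 3 for R7 against R3. The EDL counts over all 9345 tested peaks were 34 up and 117 down, 7 up and 38 down, and 1 up and 14 down. A filter of at least 5 CPM in 3 libraries gave 0 for D7 against D1 in both muscles. In soleus it removed the 2 peaks of the main fit before the test, so the 0 does not test them. Column sums as library sizes gave 0 in EDL for D7 against D1 and for R7 against R3. Leaving out a library gave 17 to 52 calls for the interaction, 24 to 50 for soleus R1 against D7, 26 to 43 for R3 against R1, 1 to 2 for D7 against D1, and in EDL 0 to 7 for D7 against D1 and 0 to 1 for R7 against R3. These ranges pool both directions. For the lowest interaction, soleus R1 against D7 and soleus R3 against R1 counts, the numbers over all tested peaks are given above.

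The rule itself gave 96 peaks with 5 CPM added and 115 with a ratio over 8. Medians over peaks here are of ratios with 1 CPM added to both means, which draws low peaks toward 1. The sum over the control mean was 0.348 (TMM) or 0.848 (median over peaks) in place of 0.454 for soleus R1, 0.738 or 0.769 in place of 0.851 for EDL D7, and 0.735 or 0.924 in place of 0.849 for EDL R7. The cause was not tested. Only 3 animals a group were measured, and many soleus values rest on a few tags. Recovery of changes smaller than a log2 size of 2.5, or at peaks with few tags, was not tested.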
